A study of Mus musculus with 6 samples.

Results

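The clustered histone genes were compared between hnRNPL-deficient and control B cells. They were taken as every gene in the deposited table whose symbol begins with *Hist1h*, *Hist2h*, *Hist3h* or *Hist4h*, and 70 of the 55421 genes in the table met this rule. These were 6 H1, 20 H2A, 19 H2B, 12 H3 and 13 H4 genes. On GRCm38, 56 of them lie on chromosome 13, 10 on chromosome 3, 3 on chromosome 11 and 1 on chromosome 6, and 67 are annotated as protein coding. The other 3, *Hist1h2aj*, *Hist1h2al* and *Hist3h2bb-ps*, are annotated as pseudogenes.

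Spleen B cells came from mice with a floxed gene, Hnrnpl F/F, that carried CD21-cre and Rosa mT/mG (hnRNPL-deficient, KO) and from mice with CD21-cre and Rosa mT/mG alone (WT). Both groups were on a C57BL6/J background and over 6 weeks old. Mice of either sex were used across the study, and the sex of these mice is not given in the sources used here. Rosa mT/mG is a reporter that switches from Tomato to GFP after Cre has acted. CD21-cre recombines mostly in peripheral B cells, and sorting for GFP kept the cells with Cre activity. Cells received 5 μg/ml LPS plus 5 ng/ml IL-4 for 24 h in culture, and 1 poly(A)-selected library was made for each of 3 mice per group.

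Clustered histone genes supply the core histones H2A, H2B, H3 and H4 and the linker histone H1 that package newly copied DNA, and their mRNAs accumulate in S phase. Their mRNAs are unusual among mRNAs in that most end in a conserved stem-loop and not in a poly(A) tail. The stem-loop-binding protein SLBP and the U7 small nuclear ribonucleoprotein direct cleavage just after that loop, and NPAT drives transcription of the clusters. Some of these genes can also give polyadenylated or spliced transcripts, and a poly(A)-selected library may recover the forms with and without a tail unequally.

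The stem-loops of the genes are shown first, since they set the members apart from most mRNAs and bear on what a poly(A)-selected library can capture. The pattern searched was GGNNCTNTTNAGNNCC, on the transcript strand, after the stop codon. It was present in the GENCODE M21 transcripts of 44 of the 70 genes, namely 4 of 6 H1, 11 of 20 H2A, 10 of 19 H2B, 8 of 12 H3 and 11 of 13 H4 genes. Several members without it have short annotated transcripts, such as 312 bases for *Hist1h4k* and 381 for *Hist1h2bl* and *Hist1h2bn*. A loop or a poly(A) signal past an annotated end would be missed, so these counts describe the annotation. Of 21901 genes with a protein-coding transcript, 137 (0.626%) held the pattern anywhere. There were 6 versions of the loop, of which the most frequent was in 26 genes and the next in 7. The lines below give 1 gene per type with the loop in capitals, and *Hist1h4b* for another stem.
Hist1h1c (chr13:23739507-23739532, plus strand): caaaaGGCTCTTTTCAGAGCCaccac
Hist2h2aa2 (chr3:96239779-96239804, minus strand): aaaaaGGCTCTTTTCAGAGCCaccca
Hist1h2bg (chr13:23571838-23571863, plus strand): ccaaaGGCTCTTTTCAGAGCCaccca
Hist2h3c2 (chr3:96238480-96238505, minus strand): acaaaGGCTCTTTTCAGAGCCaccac
Hist1h4d (chr13:23581945-23581970, plus strand): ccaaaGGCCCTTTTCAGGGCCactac
Hist1h4b (chr13:23757361-23757386, plus strand): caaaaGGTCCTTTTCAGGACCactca

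H1, H2A, H2B and H3 genes shared the same loop in these examples, and both H4 genes differed from it on both sides of the stem. The loops began 24 bases after the stop codon in *Hist1h1c* and 58 bases after it in *Hist2h2aa2*. AATAAA, the usual signal for adding a poly(A) tail, stood in the last 40 bases of an annotated transcript of 15 of the 70 genes, compared with 64.1% of genes with a protein-coding transcript. Both features were annotated for 11 of the 70 genes.

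Promoters of 62 of the 70 genes were found in RefSeq (GRCm38.p6), and the 250 bases before each start were searched on both strands. CCAAT was present for 82.3% of these genes against 37.5% of all 27025 genes with a promoter, and TATAAA for 46.8% against 14.3%. By type, CCAAT was present for all 6 H1, 18 H2A and 16 H2B genes and for 8 of 10 H3 genes. It was present for only 3 of 12 H4 genes (25.0%), a lower share than over all genes. ATTTGCAT, the octamer, was present for 7 of 18 H2A and 7 of 16 H2B genes and for none of the 6 H1, 10 H3 and 12 H4 genes, against 1.81% of all genes. Among these genes, 8 H2A and H2B pairs had at most 250 bases between their RefSeq starts and were transcribed away from each other. Some pairs with close starts in GENCODE M21 are not among these 8, such as *Hist2h2ac* and *Hist2h2be*. The sequence between both starts is given for the pairs with the octamer, because genes that share a promoter region are compared below. It reads toward the H2B gene on the plus strand, with the octamer, CCAAT on either strand (ATTGG is its reverse complement) and any TATA motif in capitals.
Hist1h2ae to Hist1h2bg (chr13:23571221-23571399): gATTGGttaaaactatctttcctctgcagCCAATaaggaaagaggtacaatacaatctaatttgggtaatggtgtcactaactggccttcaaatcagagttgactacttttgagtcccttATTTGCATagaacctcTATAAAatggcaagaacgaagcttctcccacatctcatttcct
Hist1h2ah to Hist1h2bk (chr13:22035644-22035820): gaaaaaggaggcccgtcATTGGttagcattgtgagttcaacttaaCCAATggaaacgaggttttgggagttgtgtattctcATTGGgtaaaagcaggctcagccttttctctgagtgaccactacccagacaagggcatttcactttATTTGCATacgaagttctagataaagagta

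The libraries held between 40395186 and 75180749 reads on genes, and KO library 3 was the shallowest. *Hnrnpl*, the targeted gene, had 24371, 25580 and 24174 normalized counts (reads divided by a size factor for each library) in WT libraries 1, 2 and 3, and 2178, 1519 and 1297 in KO libraries 1, 2 and 3, as the labels state. The B-cell markers were abundant in all libraries but did not move one way. *Cr2* rose from between 3382 and 5189 in WT to between 5425 and 9441 in KO (log2 fold change 0.85, adjusted p = 0.0444 from limma) and was not called without KO library 3. *Ms4a1* ranged from 52501 to 66279 in WT and from 38987 to 49992 in KO (log2 fold change -0.40, under the 1.5-fold needed for a call). The groups overlapped for *Cd79a*, *Cd79b* and *Pax5*, with log2 fold changes of 0.27, 0.31 and 0.01, and none of these was called. The summed counts of 6 T-cell markers ranged from 19.7 to 27.7 in WT and from 28.3 to 38.4 in KO, those of 4 erythroid markers from 5.19 to 18.6 and from 16.2 to 27.3, and those of 3 NK-cell markers were 0 in WT and from 1.80 to 3.03 in KO. Of the myeloid markers, *S100a8* and *S100a9* were at 0 in all libraries and *Lyz2* was above 0 in KO library 2 only, while *Adgre1* rose from between 236 and 315 in WT to between 1217 and 1369 in KO. *Itgam* had 18.6, 6.1 and 11.5 in WT and 18.0, 11.1 and 5.5 in KO, and *Csf1r* was under 7 in every library, so the groups overlapped for both. The 6 myeloid markers summed to between 260 and 331 in WT and between 1239 and 1382 in KO, nearly all of it *Adgre1*. Any part of these marker differences in the histone values was not tested.

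No histone gene changed between the groups by the test used. Of the 70 genes, 66 averaged 10 or more normalized counts and were tested, and 0 were called higher and 0 lower by limma on log2(normalized count + 1), with calls made at a 1.5-fold difference or more and an adjusted p below 0.1. Over all 17640 genes tested, 1284 were called higher (7.28%) and 719 lower (4.08%). The unadjusted p was under 0.05 for 0 of the 66 genes, and the smallest adjusted p was 0.257 from limma, for *Hist4h4*. edgeR on the reads of 5 libraries, without KO library 2, called 0 of the 66, and DESeq2 on the same reads called 1 lower, *Hist4h4* (adjusted p = 0.0893). Their unadjusted p was under 0.05 for 1 gene in edgeR and for 6 in DESeq2. On the same 5 libraries limma called 0, with an unadjusted p under 0.05 for 8 genes and a smallest adjusted p of 0.125. The median log2 fold change was then -0.59, so the count tests are not comparable with limma on 6 libraries.

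The fitted log2 fold changes were nonetheless nearly all on one side of 0. Of the 66 genes 65 were negative, with a median of -0.40 against -0.03 over all genes tested, and they ranged from -0.72 (*Hist3h2ba*) to 0.39 (*Hist3h2a*). The medians were -0.36 for 5 H1 genes, -0.41 for 18 H2A genes, -0.37 for 19 H2B genes, -0.40 for 11 H3 genes and -0.40 for 13 H4 genes. The 95% interval held 0 for all 66 genes, and for none of them did it lie wholly within a 1.5-fold change in either direction. The 6 libraries neither called a change in these genes nor bounded it to a small one.

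The offset lay in KO library 3. It had the lowest value of the 6 libraries for 64 of the 66 genes, against 25.6% of all genes tested. Its value was under 0.6 times the mean of KO libraries 1 and 2 for 62 of the 66 genes, against 4.98% of all genes, a cutoff chosen after the values were seen. KO libraries 1 and 2 both lay within the WT range for 22 genes. For none of the 66 genes were all KO libraries below all WT libraries, which held for 16.3% of all genes tested, and for none were they all above, which held for 17.7%. Without KO library 3 the median of the 66 log2 fold changes was 0.01, with 27 negative and 39 positive, and they ranged from -0.20 to 0.35. The 95% interval then lay within a 1.5-fold change in either direction for 46 of the 66 genes, and 0 were called. The part of depth, the cell cycle or RNA quality of that library in its histone values was not tested. In bulk RNA, fewer cells of a kind and less of an RNA per cell cannot be told apart.

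**Figure D1:**
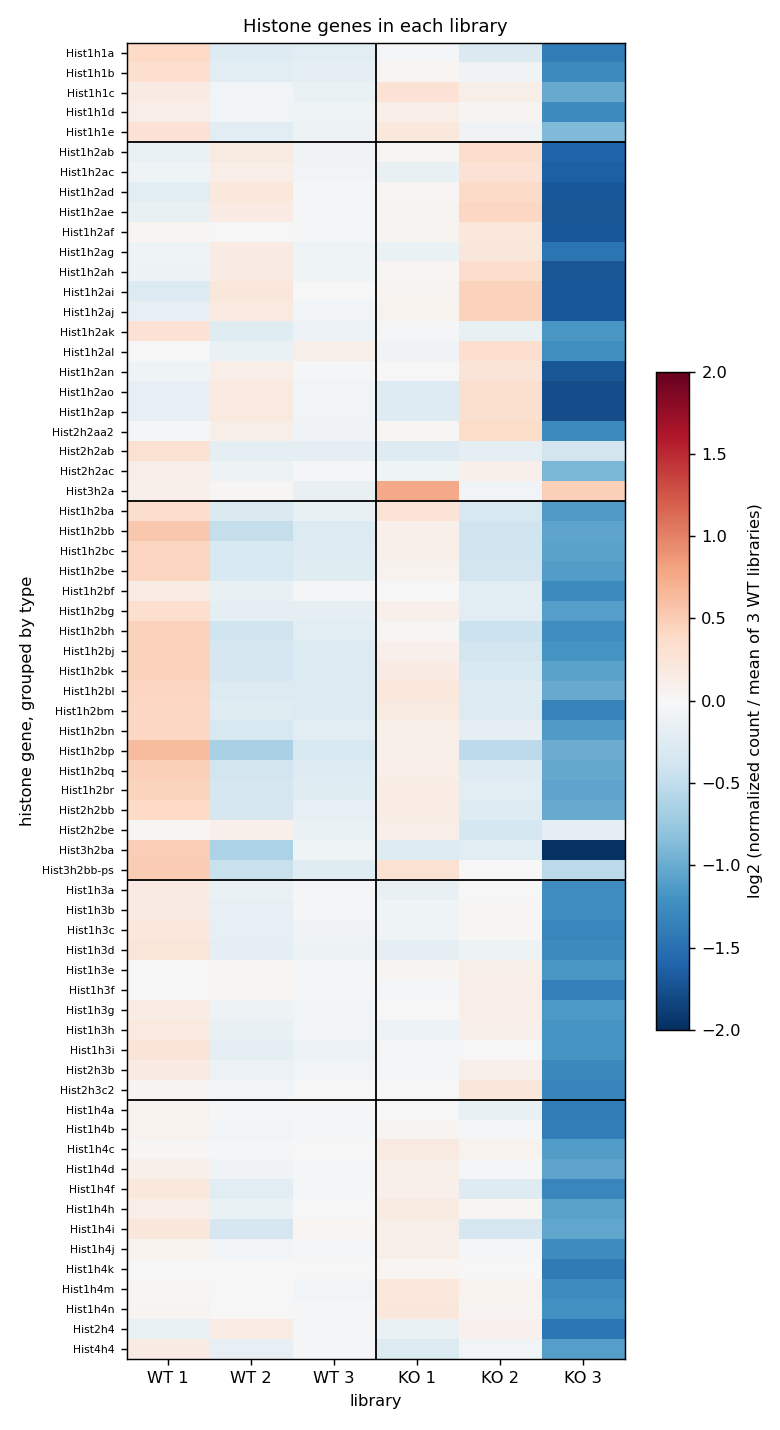
Each row is a tested histone gene and each column a library, and colour gives the log2 ratio of the normalized count to the mean of the 3 WT libraries. KO library 3 is blue for nearly every gene, *Hist3h2a* is the row above 0 there, and WT library 1 is red across the H2B genes.

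**Figure D2:**
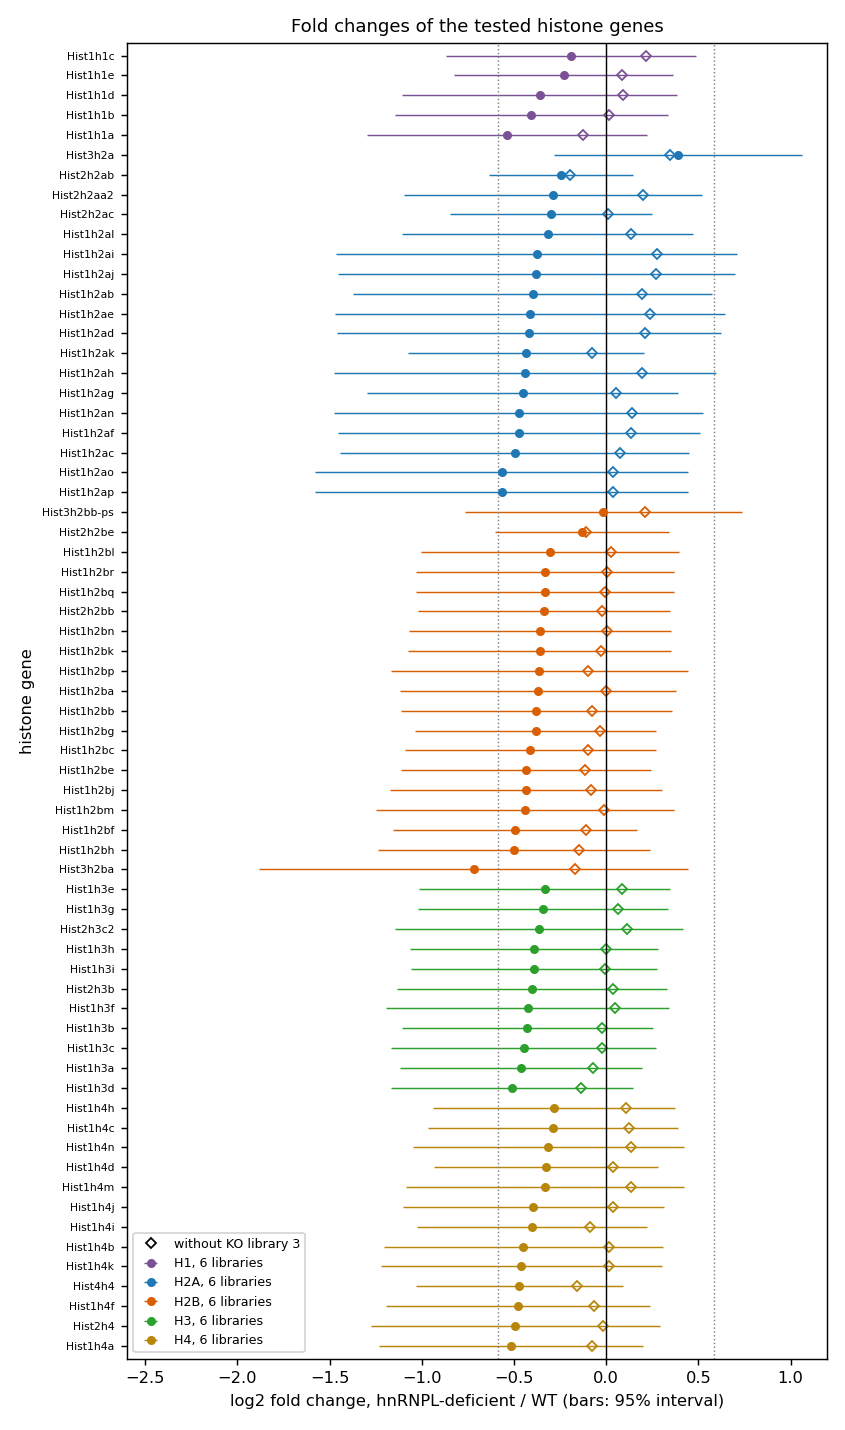
Filled points are log2 fold changes of KO against WT from all 6 libraries with 95% intervals, open diamonds are the same without KO library 3, and dotted lines mark a 1.5-fold change. All 66 intervals cross 0, and the diamonds lie between -0.20 and 0.35.

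Summed over each type, the same library stood apart in all 5 types. The H2A genes together had 31647, 32808 and 30124 normalized counts in WT libraries 1, 2 and 3 and 30480, 36850 and 11834 in KO libraries 1, 2 and 3. The H4 genes had 93388, 85559 and 86782 in WT and 95827, 87416 and 38355 in KO. KO library 3 was at 47.8% of the WT mean for H1, 37.5% for H2A, 47.0% for H2B, 41.6% for H3 and 43.3% for H4. KO libraries 1 and 2 were at 112% and 96.7% for H1, 96.7% and 117% for H2A, 109% and 81.0% for H2B, 97.0% and 107% for H3, and 108% and 98.7% for H4. All members together made up 0.549%, 0.439% and 0.466% of the normalized total in WT and 0.520%, 0.477% and 0.232% in KO. Copies of a gene can be credited with the same reads, so these sums can count a read more than once.

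**Figure D3:**
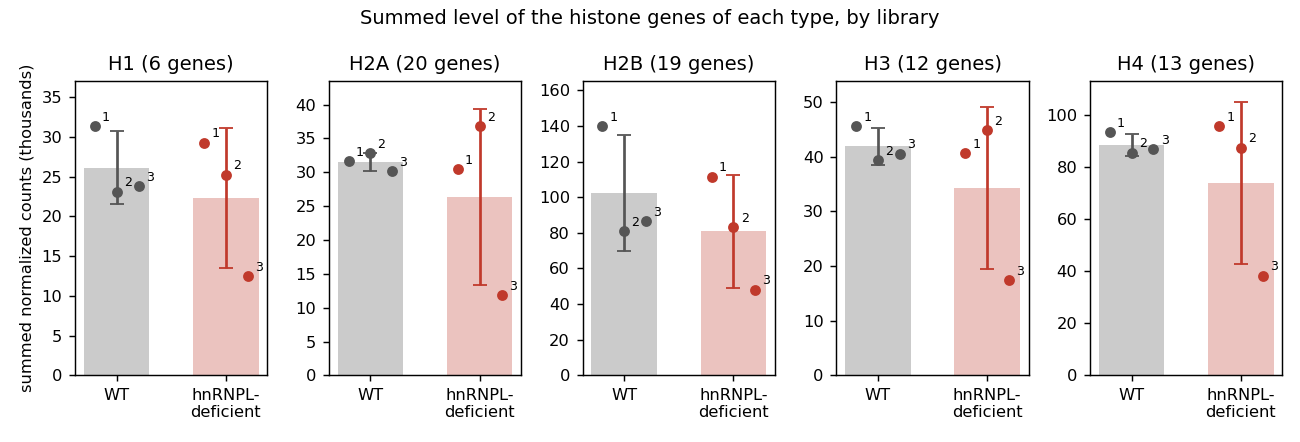
Points are libraries, numbered by replicate, bars are means and error bars SDs of the summed normalized counts of each histone type (n = 3 libraries per group). KO library 3 is the lowest point in every panel, and WT library 1 is the highest for H1, H2B and H3.

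H1 genes encode the linker histone that binds DNA between nucleosomes. *Hist1h1e* had 12943, 9062 and 9909 normalized counts in WT and 12350, 10087 and 5788 in KO (log2 fold change -0.23, 95% interval -0.82 to 0.36). *Hist1h1c* had 5697, 4889 and 4617 in WT and 6207, 5523 and 2526 in KO. KO library 1 was above all WT libraries for *Hist1h1c*, and KO library 3 below all of them for both genes. *Hist1h1a* had 5503, 3503 and 3576 in WT and 4099, 3444 and 1595 in KO, and it was the H1 gene with the most negative fold change (-0.54 on the log2 scale, and -0.13 without KO library 3). *Hist1h1t*, the testis form, had 18 reads over all 6 libraries and was not tested.

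H2A genes had the lowest ratios in KO library 3. *Hist1h2ak* had 8437, 5844 and 6366 normalized counts in WT and 6680, 6201 and 3069 in KO (log2 fold change -0.43, 95% interval -1.07 to 0.21). *Hist2h2aa2* had 3451, 3849 and 3369 in WT and 3618, 4593 and 1476 in KO. KO libraries 1 and 2 of these genes were within the WT range or above it. *Hist1h2ap* had 2038, 2602 and 2197 in WT and 1898, 2841 and 663 in KO. The ratio of KO library 3 to the mean of KO libraries 1 and 2 had a median of 0.28 over the 18 H2A genes, against 0.42 for H1, 0.49 for H2B, 0.43 for H3, 0.41 for H4 and 0.98 over all genes tested. These ratios describe 1 library and have no test.

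Near-identical copies make the values of single H2A genes uncertain. *Hist1h2ao* and *Hist1h2ap* had the same number of reads in WT library 1 (1756) and in KO library 3 (484), and 3011 and 3010 in WT library 2. Windows of 100 bases were compared between transcripts, and a median of 69.9% of an H2A gene's windows also occurred in another transcript, against 32.8% for H2B, 49.8% for H3, 19.0% for H4 and 0.395% for H1. *Hist2h2aa1* and *Hist2h3c1* were listed at 0 in all 6 libraries, while their copies *Hist2h2aa2* and *Hist2h3c2* were not. Both of the genes at 0 overlap exons of *Gm20634* on the same strand, over 90.3% and 100% of their exon bases, and a part of this overlap in the zeros was not tested. *Hist1h2aa* had 1 read in all.

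H2B genes differed between the libraries in a second way. *Hist1h2br* had 16400, 9470 and 10107 normalized counts in WT and 13272, 10243 and 5802 in KO (log2 fold change -0.33, 95% interval -1.03 to 0.37). *Hist1h2bq* had 16570, 9289 and 10045 in WT and 13181, 10024 and 5870 in KO. *Hist1h2bg* had 14186, 9812 and 9785 in WT and 12119, 9649 and 5254 in KO. For all 3 genes WT library 1 was the highest and KO library 1 came next. WT library 1 was over 1.3 times the mean of WT libraries 2 and 3 for 17 of the 19 H2B genes and for 2 of the 18 H2A genes, against 17.3% of all genes tested, a cutoff also chosen after the values were seen. The median of that ratio was 1.64 for H2B, 1.36 for H1, 1.19 for H3, 1.08 for H4 and 0.91 for H2A. Over the 25 S-phase genes described below it was 1.29, and 11 of them were over 1.3. The H2B sum was 4.42, 2.47 and 2.87 times the H2A sum in WT libraries 1, 2 and 3 and 3.66, 2.25 and 4.07 times in KO libraries 1, 2 and 3, so the groups overlapped in this ratio.

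**Figure D4:**
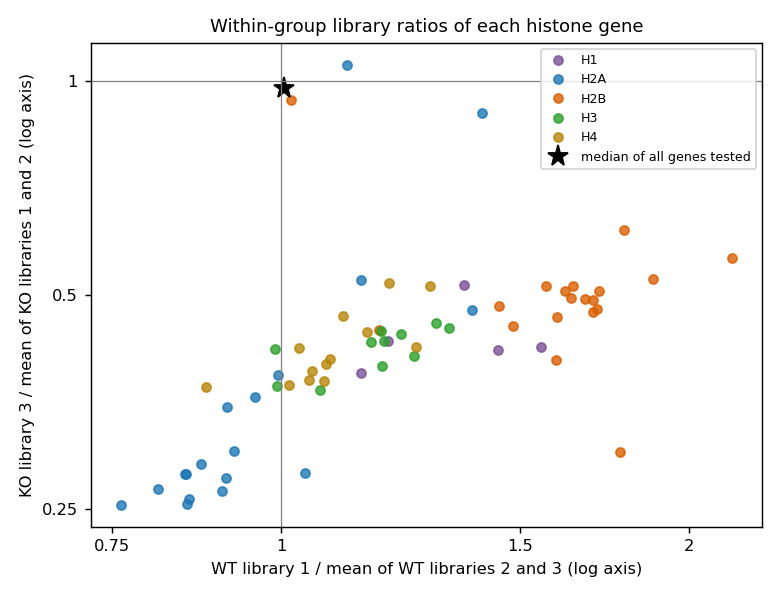
Each point is a tested histone gene, placed by the ratio of WT library 1 to the mean of the other WT libraries (x) and of KO library 3 to the mean of the other KO libraries (y), both on log axes. H2B genes lie to the right, with a median of 1.64 on x, most H2A genes lie at the lower left, and the star marks the medians of all genes tested, 1.00 and 0.98.

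The split between H2A and H2B was also seen within most pairs of genes that start next to each other. In all 8 RefSeq pairs described above, the ratio for WT library 1 was higher for the H2B gene than for the H2A gene. In 7 of 8 the KO library 3 ratio was also higher for the H2B gene. *Hist1h2ae* was at 0.85 and *Hist1h2bg* at 1.45 for the WT library 1 ratio, and the sequence above holds the 179 bases between their starts. *Hist1h2ah* was at 0.90 and *Hist1h2bk* at 1.70. The log2 fold changes of the 2 genes were close, at -0.41 and -0.38 for the first pair and -0.44 and -0.36 for the second. *Hist1h2ak* and *Hist1h2bn* were the exception for KO library 3, at 0.48 and 0.47.

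The 5 histone genes with more than 1 annotated exon were all H2B genes, namely *Hist1h2br*, *Hist1h2bq*, *Hist1h2bc*, *Hist1h2be* and *Hist1h2bp*. *Hist1h2bc* had 9658, 5808 and 5954 normalized counts in WT and 7737, 5424 and 3384 in KO. *Hist1h2be* had 7565, 4583 and 4759 in WT and 5897, 4363 and 2596 in KO. *Hist1h2bp* had 8039, 3313 and 4164 in WT and 5588, 3610 and 2590 in KO. All 3 had KO library 1 between WT library 1 and the other WT libraries. The KO library 3 ratio had a median of 0.51 over the 5 genes and 0.42 over the 61 genes with 1 exon.

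H3 genes varied less among the WT libraries than H2B genes, with SDs of the WT library medians of 0.15 and 0.42 on the log2 scale. *Hist2h3c2* had 9036, 8303 and 8628 normalized counts in WT and 8675, 10118 and 3450 in KO (log2 fold change -0.37, 95% interval -1.15 to 0.42). *Hist2h3b* had 6587, 5422 and 5687 in WT and 5757, 6340 and 2404 in KO. *Hist1h3e* had 4447, 4592 and 4396 in WT and 4658, 4833 and 1994 in KO. KO libraries 1 and 2 were above all WT values for *Hist1h3e*, and KO library 3 was below them for all 3 genes. The fold change without KO library 3 was 0.12 for *Hist2h3c2*, 0.04 for *Hist2h3b* and 0.08 for *Hist1h3e* on the log2 scale.

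H4 genes had the smallest such SD of the 5 types, 0.07, and also had low values in KO library 3. *Hist1h4d* had 21525, 19219 and 19573 normalized counts in WT and 21699, 19614 and 9659 in KO (log2 fold change -0.33, 95% interval -0.94 to 0.28). *Hist1h4n* had 12900, 12411 and 12064 in WT and 14500, 12935 and 5355 in KO. *Hist1h4m* had 11960, 11649 and 11180 in WT and 13359, 12129 and 4833 in KO. KO libraries 1 and 2 were above all WT libraries for *Hist1h4n* and *Hist1h4m*. None of the windows of *Hist1h4d* occurred in another transcript, and its KO library 3 ratio was 0.47. The part of shared reads in these ratios was not tested. *Hist4h4*, the only histone gene on chromosome 6, had 2901, 2301 and 2534 in WT and 2132, 2484 and 1199 in KO (log2 fold change -0.47, 95% interval -1.03 to 0.09).

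There were 4 genes whose KO library 3 value was not under 0.6 times the other KO libraries, and they are named after their values were seen. *Hist3h2a* had 46.4, 44.1 and 39.0 normalized counts in WT and 73.0, 41.4 and 60.3 in KO, and 33.0% of its exon bases lie in *Trim17* on the same strand. *Hist2h2be* had 156, 165 and 141 in WT and 169, 120 and 136 in KO. *Hist2h2ab* had 660, 469 and 471 in WT and 448, 470 and 414 in KO, and the groups overlapped although WT library 1 was above all KO libraries. *Hist3h2bb-ps* had a KO library 3 ratio of 0.62. None of the 4 lies on chromosome 13, where the ratio ranged from 0.25 to 0.56 over 54 tested genes, compared with 0.30 to 1.05 over 12 genes elsewhere. The 41 tested genes with an annotated stem-loop had a median ratio of 0.42 and the 25 without it 0.44. The 13 genes with AATAAA near the annotated end had 0.49 against 0.42 for the other 53. These groups depend on where the annotated transcripts end.

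Replacement histone variants, most of which are made throughout the cell cycle from polyadenylated mRNAs, gave 1 called gene of 9 tested, higher in KO, against 7.28% of all genes called higher. *H1f0*, a linker histone of resting and differentiated cells, had 125, 85.6 and 81.1 normalized counts in WT and 208, 251 and 178 in KO, and it rose (log2 fold change 1.13, adjusted p = 0.0221 from limma). All KO libraries were above all WT libraries for *H1f0*, and its log2 fold change ranged from 1.00 to 1.33 over the 6 fits that each lacked 1 library. The median of the 9 genes was 0.00 on the log2 scale, and 0.15 without KO library 3. KO library 3 was the lowest library for 7 of the 9, against 25.6% of all genes tested. Its ratio to the mean of the other KO libraries had a median of 0.72 over the 9 genes. *H2afx*, which encodes the H2A.X of DNA damage signalling and whose mRNA can end in a stem-loop or a poly(A) tail, is named after its values were seen. It had 3646, 3433 and 3166 in WT and 3255, 3334 and 1462 in KO, a KO library 3 ratio of 0.44, close to the median of 0.43 of the histone genes.

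Factors that make or degrade histone mRNA gave 0 called genes of 18 tested by limma, with a median log2 fold change of -0.18. The unadjusted p was under 0.05 for 3 of them, compared with 4830 of all 17640 genes, which is a lower share. *Slbp*, which encodes the stem-loop-binding protein, had 8471, 6381 and 6218 normalized counts in WT and 6400, 5024 and 4514 in KO (log2 fold change -0.40, 95% interval -0.78 to -0.03, adjusted p = 0.152 from limma). *Npat*, the activator of histone transcription, had 9194, 6867 and 6736 in WT and 6704, 5611 and 6336 in KO (log2 fold change -0.28, adjusted p = 0.236 from limma). KO library 3 was not set apart for *Npat*, at 1.03 times the mean of the other KO libraries, and was at 0.79 times for *Slbp*.

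Histone chaperones, which carry histones to DNA, gave 2 called genes of 21, both lower, against 4.08% of all genes called lower. *Chaf1b*, a subunit of chromatin assembly factor 1, had 3924, 3036 and 3083 normalized counts in WT and 2282, 2094 and 1601 in KO (log2 fold change -0.75, adjusted p = 0.0209 from limma). *Hat1*, which acetylates new H4, had 8728, 6542 and 6246 in WT and 5089, 4545 and 3813 in KO (log2 fold change -0.67, adjusted p = 0.0294 from limma). The groups did not overlap for either gene. *Chaf1b* remained called without KO library 3 and *Hat1* did not, and the number called was 4 without WT library 3, 5 without KO library 1 and 4 without KO library 2.

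S-phase genes, which copy DNA, make its precursors or regulate S phase, gave 5 called genes of 25, all lower, against 4.08% of all genes called lower. All 25 had a negative log2 fold change, with a median of -0.51 against -0.03 over all genes. *Cdc6*, which loads the replicative helicase, had 4684, 3497 and 3441 normalized counts in WT and 2590, 2352 and 1584 in KO (log2 fold change -0.85, adjusted p = 0.0301 from limma). *E2f1*, a transcription factor of S-phase entry, had 2168, 1771 and 1673 in WT and 1333, 1200 and 750 in KO (log2 fold change -0.81, adjusted p = 0.0460 from limma). The groups did not overlap for these genes. *Gins1* and *Gins2*, subunits of the GINS replication complex, had log2 fold changes of -0.72 and -0.64, and the other called gene was *Mcm5*, at -0.59, named after its value was seen.

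KO library 3 was the lowest library for 24 of the 25 S-phase genes, at a median of 0.67 times the mean of the other KO libraries, a smaller gap than for the histone genes. Without it the median of the S-phase genes was -0.30, all 25 remained negative and 2 were called (*Cdc6* and *Gins1*), whereas the histone genes had a median of 0.01 and 0 called. The number of S-phase genes called was also 2 without WT library 1, and it was 13 without KO library 1 and 8 without KO library 2. The difference between the lists was not tested.

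**Figure D5:**
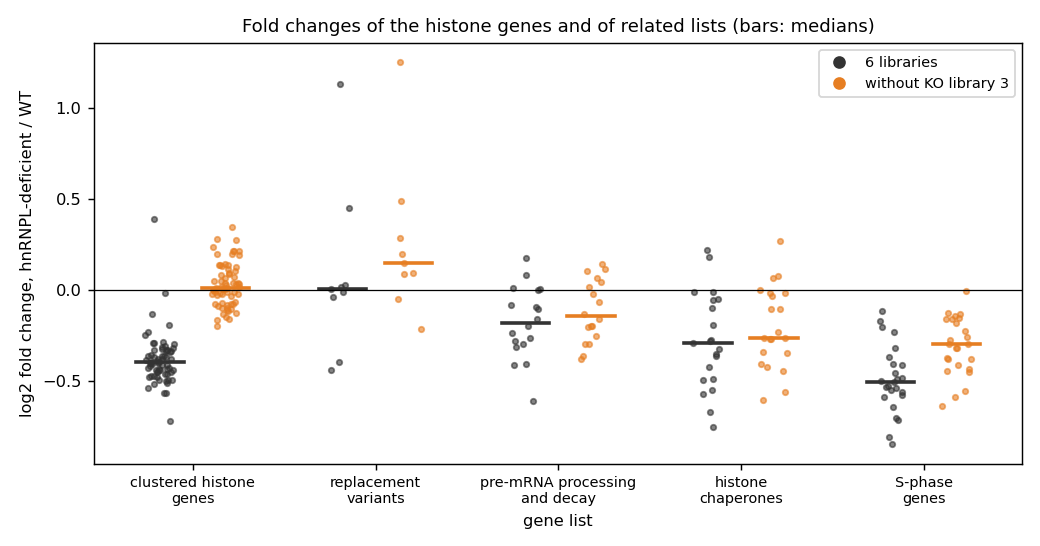
Points are log2 fold changes of KO against WT for single genes of each list, with all libraries (dark) and without KO library 3 (orange), and bars are medians. The histone genes move from a median of -0.40 to 0.01 and the S-phase genes from -0.51 to -0.30.

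Other RNAs that normally lack a poly(A) tail were read beside the histone genes. *Rn7sk*, the RNA that holds back elongation factor P-TEFb, had 368352, 531690 and 460434 normalized counts in WT and 570045, 592988 and 464264 in KO, and KO library 3 was within the WT range. *Rn7s1* had 7025, 12444 and 10201 in WT and 10345, 9800 and 5725 in KO. *Rn7s2*, a near-identical copy of this RNA of the signal recognition particle, had 7034, 12455 and 10205 in WT and 10346, 9807 and 5728 in KO. Of the 9 such RNAs tested, KO library 3 was the lowest for 5, and its ratio to the other KO libraries had a median of 0.77. *Rnu11*, a minor spliceosome RNA, was the 1 called gene of the list, against 4.08% of all genes called lower (log2 fold change -0.74, adjusted p = 0.0345 from limma), and was not called without WT library 2 or WT library 3. *Rmrp* and *Terc* were listed at 0.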

How the data were processed

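RNA-seq of GFP+ spleen B cells from 3 WT and 3 hnRNPL-deficient mice was analysed, grouped by the labels. The authors trimmed reads with fastp 0.23.1, aligned them to mm10 with STAR 2.7.9a, counted them per gene and by strand with featureCounts (GENCODE vM23), and divided the counts by DESeq2 (1.38.2) size factors. What the authors deposited is this normalized count per gene and library, a signal whose values are not whole numbers. The deposited table also has the authors' own log2 fold changes, test statistics (a score) and p-values, and none of these was used.

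Values were tested as log2(normalized count + 1) with limma, using its trended prior variance, over the 17640 genes averaging 10 or more normalized counts, with Benjamini-Hochberg adjustment over all of them. A call needed a 1.5-fold difference and an adjusted p below 0.1. Adding 1 understates the change of low genes. With 3 mice per group an exact permutation test cannot give a p below 0.1, so none was run. Dividing each library by its smallest value gave whole reads for 100% of values. The reads recovered in this way from 5 libraries were tested with edgeR (quasi-likelihood, TMM) and DESeq2; hnRNPL-deficient library 2 was left out because its smallest value is too close to 1 for the automatic check of whole reads.

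Replicate numbers were checked for pairing by the correlation of deviations from the group means. It was 0.43, 0.32 and 0.07 for numbers 1, 2 and 3. No pairing is given in the sources used here, so the numbers were not used as pairs in the main fit. Coordinates, exons and transcript sequences come from GENCODE M21 (GRCm38), which matched 55240 of 55421 identifiers, and promoters from RefSeq. Genes were named by a rule: called members, the 3 members of each type with the highest mean, members with more than 1 exon, *Hnrnpl*, up to 4 called genes of each related list, *Slbp*, *Npat* and the 3 most abundant other RNAs without a tail. Other genes were named after their values were seen. Members, lists and rule were chosen with earlier results of these data known. Near-identical copies can share reads, and how the authors counted reads with several matches is not given in the sources used here. The software was R 4.3.3, limma 3.58.1, edgeR 4.0.16 and DESeq2 1.42.0.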

Additional observations from a re-analysis of the deposited data

How the results depend on the processing

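The counts of 0 histone genes called higher and 0 called lower held with pseudocounts of 0.5 and 5, no filter or a filter of 50, equal library totals, quantile normalization, an untrended variance, other thresholds and each library left out. The exception was DESeq2 on 5 libraries, with 1 called lower. With the replicate block, limma called 0 and gave an unadjusted p under 0.05 for 15. Its adjusted p was under 0.1 for 6 genes, all at less than a 1.5-fold change, and the smallest was 0.0528. Every KO library and 2 of the 3 WT libraries correlated best with their own number, which is a hint from the data and not from the design. Leaving out single libraries moved the type medians to between -0.61 and 0.09 for H1, -0.80 and 0.14 for H2A, -0.65 and -0.04 for H2B, -0.66 and 0.00 for H3 and -0.65 and 0.02 for H4, and the highest value of each came without KO library 3. The same fits gave log2 fold changes from -0.46 to 0.086 for *Hist1h1e*, -0.43 to 0.21 for *Hist1h1c*, -0.62 to 0.20 for *Hist2h2aa2*, -1.01 to 0.035 for *Hist1h2ap*, -0.59 to 0.0046 for *Hist1h2br*, -0.66 to 0.12 for *Hist2h3c2*, -0.66 to 0.039 for *Hist2h3b*, -0.55 to 0.084 for *Hist1h3e*, -0.54 to 0.039 for *Hist1h4d*, -0.58 to 0.14 for *Hist1h4n* and -0.60 to 0.14 for *Hist1h4m*, all positive only without KO library 3, and from -0.65 to 0.0094 for *Hist1h2bp*, positive only without WT library 1; the cause was not tested.

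Genes called lay between 1 and 5 for the chaperones, 2 and 13 for the S-phase genes and 0 and 1 for the other RNAs without a tail when single libraries were left out. Quantile normalization called 1 chaperone and DESeq2 4, and an untrended variance called 3 S-phase genes. At an adjusted p under 0.1 and any fold, 2 replacement variants, 1 processing factor (*Sympk*, named after its value was seen), 5 chaperones and 9 S-phase genes were called, and 0 chaperones, S-phase genes or other RNAs were called at 0.05 and 2-fold, since these change only the threshold. Over all genes tested, 1284 higher and 719 lower calls became 610 and 216 at 0.05 and 2-fold and 1766 and 1406 at any fold, and 850 were higher without WT library 3. Scaling to equal totals moved the median of all genes from -0.03 to 0.03 and that of the histone genes from -0.40 to -0.34. *Hist1h1t* and *Hist1h2aa* had too few reads to be tested, and near-identical copies leave the values of single H2A genes uncertain.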
